A study of Mus musculus with 19 samples.

Results

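The mouse genes Hmgcs1, Idi1, Fdft1, Sqle, Lss, Cyp51 and Dhcr7 encode enzymes of cholesterol synthesis, and Insig1 encodes a regulator that holds the pathway back. They were chosen as a list of 8 gene symbols, all 8 were found among the 20655 genes of the deposited count table, and all 8 passed the filter on low counts that left 18204 genes. Their RNA was measured in the left hippocampus of 19 mice aged 4 months. The animals were 4 females and 5 males with the genotype 5xFADHEMI:CLUh2kbKIHO, here called knock-in, against 5 females and 5 males with 5xFADHEMI alone, here called 5xFAD. All 4 groups thus carry 1 hemizygous set of the 5xFAD transgenes, which give human amyloid precursor protein and presenilin with familial Alzheimer's disease mutations under the neuronal Thy1 promoter, and the knock-in animals are in addition homozygous for a knock-in named for clusterin, a secreted lipid-binding chaperone made mainly by astrocytes. No transgene-free animals are used here, so each genotype comparison asks what differs with the knock-in in a brain that makes amyloid. In the labels, knock-in and 5xFAD animals fall in separate runs of library names and animal numbers. A difference by genotype therefore cannot be told apart from a difference between those runs. Each library came from part of the pulverised tissue of 1 animal.

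Cholesterol cannot cross from blood into brain in useful amounts, so brain cells make their own from acetyl-CoA by way of mevalonate, squalene and lanosterol. Oligodendrocytes use it for myelin and astrocytes pass it to neurons on lipoproteins that also carry clusterin. When sterol in the endoplasmic reticulum is scarce, the transcription factor SREBP2 is escorted by SCAP to the Golgi, cut free, and switches on nearly all genes of the pathway; INSIG1 keeps SCAP in the endoplasmic reticulum when sterol is plentiful and is itself a target, which makes it a brake and a readout at once. Hmgcs1 makes HMG-CoA, from which mevalonate is made. Idi1 isomerises isopentenyl diphosphate. Fdft1 joins farnesyl units into squalene, Sqle adds the oxygen, and Lss closes the ring to give lanosterol. Cyp51 removes a methyl group from lanosterol, and Dhcr7 carries out a last step to cholesterol.

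SREBP proteins act together with NF-Y and Sp1 at promoters of this pathway, so the windows upstream of the members are shown for the letters such factors are known to bind. RefSeq promoter windows on GRCm38.p6 were at hand for 6 of the 8 members, each from 250 bases before to 50 bases after a transcription start; Sqle and Fdft1 were not among them. The 250 bases before the start are printed 5′ to 3′ on the gene's strand for the 5 members with a single window, with capitals for matches to TCACNCCAC, a sterol regulatory element type sequence, and to CCAAT, the NF-Y type box, on either strand (CCAAT reads ATTGG on the other).
Hmgcs1: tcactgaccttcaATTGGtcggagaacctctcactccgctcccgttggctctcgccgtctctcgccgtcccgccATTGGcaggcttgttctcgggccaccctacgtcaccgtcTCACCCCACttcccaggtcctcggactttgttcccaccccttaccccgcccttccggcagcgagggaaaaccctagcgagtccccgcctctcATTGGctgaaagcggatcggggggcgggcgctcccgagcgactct
Idi1: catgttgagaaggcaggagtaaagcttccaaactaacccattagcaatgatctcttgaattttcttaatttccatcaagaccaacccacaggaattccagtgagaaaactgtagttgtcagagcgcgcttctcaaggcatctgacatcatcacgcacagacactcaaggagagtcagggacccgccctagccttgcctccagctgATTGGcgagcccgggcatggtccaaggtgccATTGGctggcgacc
Cyp51: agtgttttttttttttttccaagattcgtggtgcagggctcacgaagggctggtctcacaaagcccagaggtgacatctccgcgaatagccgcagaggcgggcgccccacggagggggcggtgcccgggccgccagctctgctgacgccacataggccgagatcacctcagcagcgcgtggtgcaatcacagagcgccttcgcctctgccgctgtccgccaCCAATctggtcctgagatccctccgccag
Insig1: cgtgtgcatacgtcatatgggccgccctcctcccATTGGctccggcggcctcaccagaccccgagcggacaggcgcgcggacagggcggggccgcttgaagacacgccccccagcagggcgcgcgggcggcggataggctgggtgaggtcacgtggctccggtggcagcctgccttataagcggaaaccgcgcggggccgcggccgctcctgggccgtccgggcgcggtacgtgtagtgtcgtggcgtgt
Lss: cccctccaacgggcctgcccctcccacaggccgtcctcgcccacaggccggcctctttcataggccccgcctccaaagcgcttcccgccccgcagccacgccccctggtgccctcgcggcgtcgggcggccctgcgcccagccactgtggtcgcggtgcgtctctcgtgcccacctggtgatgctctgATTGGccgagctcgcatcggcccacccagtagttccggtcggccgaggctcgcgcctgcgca
These stretches lie at chr13:119690101-119690350 for Hmgcs1 (+ strand), chr13:8885356-8885605 for Idi1 (+ strand), chr5:4104698-4104947 for Cyp51 (- strand), chr5:28071162-28071411 for Insig1 (+ strand) and chr10:76531355-76531604 for Lss (+ strand). Hmgcs1 held the only TCACNCCAC match of the 6 members, written TCACCCCAC with its first base at -137 from the start, and it overlapped neither other motif. Among all 32851 windows of the table, 1.24% held that motif. CCAAT was found in at least 1 window of all 6 members, where 37.4% of all windows hold it. GGGCGG, the Sp1 type box, was also found in at least 1 window of all 6, against 35.7% of all windows. The members are counted by gene and the shares by window, so the figures are not on a like basis. Dhcr7 had 3 windows, of which 1 held CCAAT. Hmgcs1 had 4 CCAAT matches in its 300 bases, Idi1 had 2, and Cyp51, Insig1 and Lss had 1 each. These are matches of letters in these windows, not sites.

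Library totals ran from 17.28 to 25.2 M counts (M for mega), and Xist and Ddx3y levels fitted the labelled sex in 19 of 19 libraries. Clu, the mouse clusterin gene, stood at 1204 ± 187 CPM (counts scaled to library size; SD, n = 4) in knock-in females and 962 ± 181 (n = 5) in knock-in males, against 983 ± 139 in 5xFAD females and 976 ± 115 in 5xFAD males (n = 5 each). All 9 hippocampal neuron markers were above 0 in every library. Some libraries stood apart in what else they held: the 6 choroid plexus markers summed to between 32.4 and 11350 CPM, and the mean log2 CPM of 8 nuclear long noncoding RNAs such as Malat1 and Meg3 was 6.53 ± 0.43 in knock-in females and 7.81 ± 0.53 in knock-in males, against 8.21 ± 0.17 in 5xFAD females and 7.67 ± 0.74 in 5xFAD males. For the members themselves, 5xFAD female 2 was the lowest of its group in 8 of 8 genes and knock-in male 7 the highest of its group in 6 of 8. In bulk tissue, fewer cells of a type and less RNA per cell cannot be told apart.

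Every member was measured with at least 569 counts in every library. Hmgcs1 was the most abundant, at 326 ± 40.1 CPM over all animals (SD, n = 19), and Lss the least, at 36.4 ± 5.1 CPM. Per kilobase of merged exons, the order of levels was Hmgcs1 (71.0 CPM per kb), Insig1 (29.96), Fdft1 (25.6), Idi1 (20.9), Cyp51 (17.3), Sqle (16.3), Dhcr7 (7.00) and Lss (3.37). Hmgcs1 exceeded Insig1, Sqle exceeded Dhcr7 and Dhcr7 exceeded Lss in all 19 libraries with ranges that did not overlap; the ranges of the other neighbours overlapped, although Idi1 exceeded Cyp51 in 18 of 19 libraries and Fdft1 exceeded Idi1 in 17 of 19. The length used matters for Sqle, which moved to the third place (32.7 CPM per kb) when the longest protein-coding model replaced merged exons. Relative to its mean, Idi1 varied most between animals (coefficient of variation 18.7%) and Dhcr7 least (9.01%). GENCODE places Hmgcs1 and Idi1 on chromosome 13, Cyp51 and Insig1 on 5, Fdft1 on 14, Sqle on 15, Dhcr7 on 7 and Lss on 10.

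**Figure D1:**
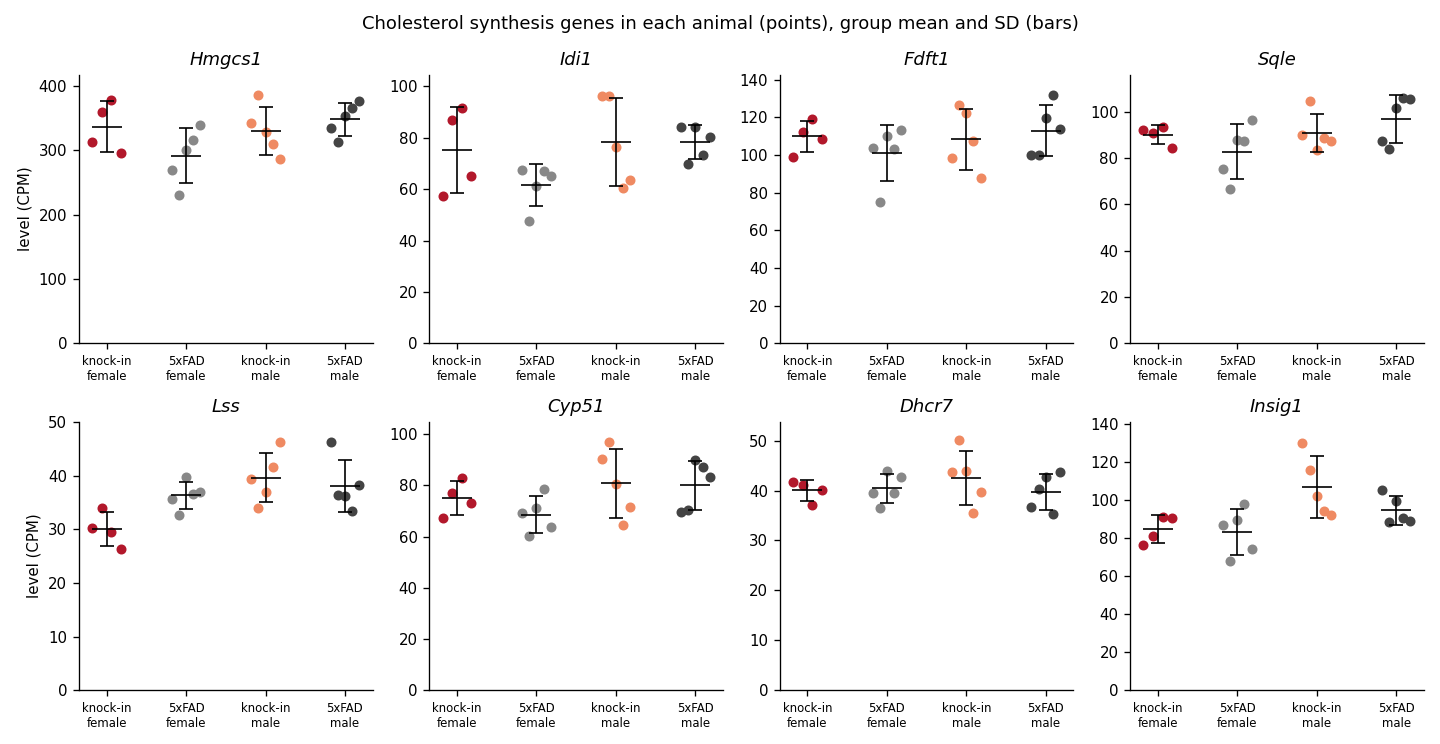
Level of each of the 8 genes in CPM (y axis, from 0) in every animal (points) of the 4 groups (x axis), with group mean and SD as bars. Group means lie close together for most genes; Lss in knock-in females (26.3 to 34.0 CPM) sits below all 5 knock-in males (34.1 to 46.3 CPM).

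Over both sexes, none of the 8 genes passed the test for genotype, and 0 had an edgeR p under 0.05 before adjustment, where 11.9% of all genes did. In this comparison 0.022% of all tested genes passed (4 genes, all higher in knock-in animals). The fitted log2 difference, knock-in minus 5xFAD with sex as a term, ran from -0.10 for Lss to 0.14 for Idi1, with 7 of 8 above 0 and a median of 0.05, where 49.6% of all genes lay above 0 with a median of -0.001. Every 95% interval of a member lay within -0.27 to 0.36. With the noncoding RNA level as a covariate the median of the members was -0.02. Within each sex 0 of 8 members separated the genotypes without overlap, where 12.9% of all genes did in females and 1.02% in males.

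Hmgcs1, the enzyme at the head of the list, overlapped between genotypes in both sexes. Knock-in females held 312, 360, 379 and 295 CPM, against 269, 231, 301, 316 and 340 CPM in 5xFAD females. Knock-in males held 342, 386, 328, 309 and 287 CPM, against 335, 312, 352, 366 and 376 CPM in 5xFAD males. In females, 2 of 4 knock-in values exceeded every 5xFAD value and 2 of 5 5xFAD values were under every knock-in value, while in males the knock-in range enclosed the 5xFAD range. The log2 difference was 0.21 in females (SE 0.11, edgeR adjusted p = 0.294) and -0.08 in males (SE 0.11, adjusted p = 0.934).

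Idi1 was the member with the highest fitted value in females. Knock-in females held 57.3, 87.1, 91.4 and 65.1 CPM, against 67.4, 47.7, 61.3, 67.0 and 65.2 CPM in 5xFAD females. Of the knock-in females, 2 stood well above every 5xFAD female and the other two lay within the 5xFAD range. The log2 difference was 0.29 (SE 0.15, edgeR adjusted p = 0.284). In males, knock-in animals held 96.1, 96.1, 76.2, 60.4 and 63.6 CPM, against 84.2, 69.6, 84.2, 73.3 and 80.2 CPM in 5xFAD males. Of the knock-in males 2 lay above the 5xFAD range, 2 below it and 1 inside it, and the log2 difference was 0.003 (SE 0.145, adjusted p = 0.998). The paralogue Idi2 is a near relative whose reads the authors' counting could have shared.

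Lss, the cyclase that forms the first sterol, had the lowest fitted value in females. Knock-in females held 30.2, 34.0, 29.6 and 26.3 CPM, against 35.7, 32.7, 39.8, 36.6 and 36.9 CPM in 5xFAD females. Of these, 3 of 4 knock-in females lay below all 5xFAD females and 4 of 5 5xFAD females lay above all knock-in females. The log2 difference was -0.28 (SE 0.11, edgeR adjusted p = 0.138), and the unadjusted edgeR p was 0.0201. No other member was under 0.05 before adjustment in this comparison, where 22.1% of all genes were. In males, Lss was at 39.4, 34.1, 37.0, 41.6 and 46.3 CPM in knock-in animals, against 46.3, 36.5, 36.2, 33.5 and 38.2 CPM in 5xFAD animals, and the difference was 0.06 (SE 0.10, adjusted p = 0.95).

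The enzymes between these steps overlapped between genotypes throughout. Fdft1 ranged from 99.2 to 119 CPM in knock-in females, against 75.3 to 113 CPM in 5xFAD females, and from 87.7 to 126 CPM in knock-in males, against 99.8 to 132 CPM in 5xFAD males. Sqle ranged from 84.3 to 93.6 CPM in knock-in females, against 66.6 to 96.4 CPM in 5xFAD females, and from 83.6 to 105 CPM in knock-in males, against 83.7 to 106 CPM in 5xFAD males. For both, the 5xFAD females spread more widely than the knock-in females, with 5xFAD female 2 at the bottom.

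The later steps lay as close. Cyp51 ranged from 67.2 to 82.9 CPM in knock-in females, against 60.3 to 78.7 CPM in 5xFAD females, and from 64.4 to 97.2 CPM in knock-in males, against 69.8 to 90.01 CPM in 5xFAD males. Dhcr7 ranged from 37.1 to 41.8 CPM in knock-in females, against 36.4 to 43.8 CPM in 5xFAD females, so the knock-in range lay inside the 5xFAD range. Insig1 ranged from 76.1 to 91.1 CPM in knock-in females, inside the 67.8 to 97.7 CPM of 5xFAD females.

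In females as a whole, 0 of 8 members passed although 5.56% of all genes did (206 higher and 807 lower in knock-in animals). That share depended on single libraries, since 0 genes passed with edgeR when knock-in female 2 or knock-in female 4 was left out. The members' log2 differences ran from -0.28 to 0.29 with 6 of 8 above 0 and a median of 0.12, against a median of 0.01 over all genes. Sqle (0.12), Fdft1 (0.12) and Cyp51 (0.13) sat near that median, and Insig1 (0.03) and Dhcr7 (-0.01) near 0; none of the 5 had an adjusted p below 0.53. The median was 0.03 without 5xFAD female 2, and -0.15 with the noncoding RNA level as a covariate, under which no gene of the whole table passed in females. That level differed between these groups without overlap, and its relation to the members within groups is given further on.

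In males, 0 of 8 members and 0% of all genes passed with edgeR. Before adjustment 1187 genes (6.52%) and 0 members had p under 0.05, and 19 genes passed with DESeq2. The members' log2 differences ran from -0.09 for Sqle to 0.18 for Insig1, with a median of 0.01. Insig1, the brake on the pathway, was at 130, 116, 102, 94.1 and 91.9 CPM in knock-in males, against 105, 88.2, 99.6, 90.6 and 88.8 CPM in 5xFAD males. The 2 highest knock-in males lay above all 5xFAD males and 3 of 5 5xFAD males lay below all knock-in males, so the groups overlapped (SE 0.11, edgeR adjusted p = 0.82). Dhcr7 reached 50.04 CPM in knock-in male 7 and lay between 35.4 and 43.9 CPM in the other males of both genotypes.

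**Figure D2:**
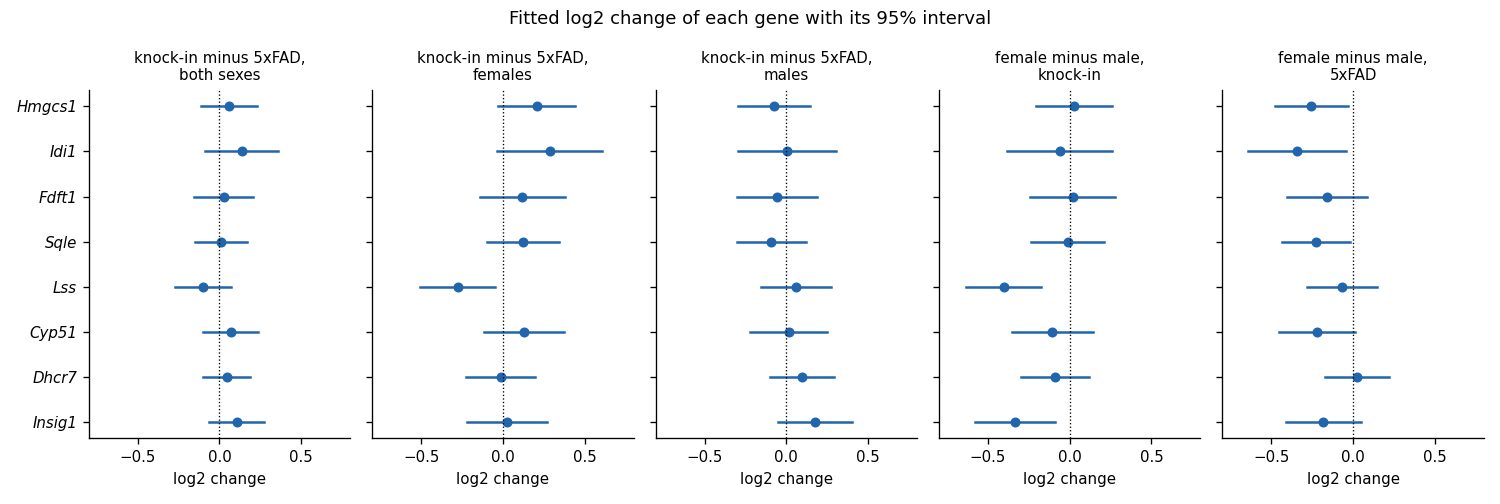
Fitted log2 difference of each gene (points) with its 95% interval (lines) in 5 comparisons, knock-in minus 5xFAD in the first 3 panels and female minus male in the last 2; the dotted line is 0. Intervals that leave out 0 are those of Lss in females, of Lss and Insig1 by sex in knock-in animals, and of Hmgcs1, Idi1 and Sqle by sex in 5xFAD animals; none of these passed after adjustment over all genes.

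Whether the genotype difference itself differed between females and males was tested as an interaction, the difference in females minus that in males. No member passed by edgeR, and 0.308% of all genes did (3 with a positive and 53 with a negative value). Before adjustment 1 member (Lss) had p under 0.05, as did 17.7% of all genes. Lss had the lowest value, -0.33 (SE 0.15, edgeR adjusted p = 0.248), and Hmgcs1 and Idi1 the highest, each at 0.28 (SE 0.16, adjusted p = 0.356 for Hmgcs1, and SE 0.21, adjusted p = 0.523 for Idi1). The 95% intervals reached from -0.65 to 0.72 over the members.

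Between the sexes, Lss and Insig1 in knock-in animals and Idi1 in 5xFAD animals separated without overlap, although none passed the test over all genes. Of all genes 4.97% separated in knock-in animals and 2.77% in 5xFAD animals, 3.46% and 1.72% with the females lower, as these members were. In knock-in animals, 0.0494% of all genes passed and 0 of 8 members did, with 2 members (Lss and Insig1) and 14.4% of all genes under 0.05 before adjustment. Lss averaged 30.02 ± 3.16 CPM in knock-in females (SD, n = 4) and 39.7 ± 4.6 CPM in knock-in males (n = 5), a log2 difference, female minus male, of -0.40 (SE 0.11, edgeR adjusted p = 0.094), and all 5 males lay above all 4 females, if only just: the highest female was at 34.00 CPM and the lowest male at 34.05 CPM. The value passed with DESeq2 (-0.39, adjusted p = 0.0457) and with edgeR when knock-in male 7 was left out (-0.45, adjusted p = 0.0459), and was -0.31 (adjusted p = 1) with the noncoding RNA level as a covariate, a level that was 6.16 to 7.08 log2 CPM in knock-in females and 7.12 to 8.50 log2 CPM in knock-in males. Calls over all genes rose in the same settings: DESeq2 called 106 genes higher and 404 lower in knock-in females than in knock-in males. Without knock-in male 7, edgeR called 28 higher and 312 lower. Insig1 likewise had no overlap, at 76.1, 81.2, 91.1 and 90.6 CPM in the females and 91.9 to 130 CPM in the males (log2 difference -0.33, SE 0.12, edgeR adjusted p = 0.182). The remaining 6 members lay between -0.11 (Cyp51) and 0.03 (Hmgcs1).

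In 5xFAD animals, of all genes 0.0385% passed, and 0 of 8 members did; 3 members (Hmgcs1, Sqle and Idi1) and 11.1% of all genes were under 0.05 before adjustment. Of the members' values 7 of 8 were below 0 with a median of -0.20, against 0.01 over all genes. Idi1 was at 67.4, 47.7, 61.3, 67.0 and 65.2 CPM in 5xFAD females, and every 5xFAD male, from 69.6 to 84.2 CPM, lay above them (log2 difference -0.34, SE 0.15, edgeR adjusted p = 0.4). Hmgcs1 had -0.26 (SE 0.11, adjusted p = 0.391), Sqle -0.23 (SE 0.10, adjusted p = 0.408) and Cyp51 -0.22 (SE 0.11, adjusted p = 0.473), and for each 3 of 5 males lay above all females. Lss had -0.07 and Dhcr7 0.02. Without 5xFAD female 2, the median of the members was -0.12. The difference between the sex effects in the 2 genotypes is the interaction given above, which no member passed.

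Within groups, several of the genes were high or low in the same animals; 8 of 28 pairs passed a permutation test, none of them with Lss or Dhcr7, and counts of positive pairs moved with the animals and scale used. After group means were removed, the 28 pairs of members had a median Pearson correlation of 0.45 over 19 libraries, with 22 pairs above 0. All pairs of the 5391 genes of similar abundance had a median of 0.03, with 52.3% above 0. Those pairs ran from -0.97 to 0.99. The permutation test was not run on them, so the share of all pairs that would pass is not known. Among the 21 pairs that leave out Lss, all 21 were above 0, from 0.23 (Sqle and Insig1) to 0.86 (Hmgcs1 and Sqle). The 7 pairs with Lss ran from -0.38 to 0.03. Genes of 1 library share its depth, RNA quality and tissue makeup.

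Of the 28 pairs, 8 had a Benjamini-Hochberg adjusted p under 0.05 by both Pearson and Spearman in a two-sided permutation of libraries within groups (100000 permutations). Hmgcs1 was in 4 of them, with Sqle, Fdft1, Idi1 and Cyp51, and Idi1, Cyp51 and Insig1 formed a second set of 3 pairs. Hmgcs1 and Sqle had r = 0.86 (permutation p = 5e-05, adjusted p = 0.0014) and rho = 0.83 (permutation p = 5e-05, adjusted p = 0.0014), and r = 0.83 without the 2 libraries farthest from the median of Hmgcs1. Idi1 and Insig1 had r = 0.73 (permutation p = 0.00237, adjusted p = 0.0111) and rho = 0.72 (permutation p = 0.00336, adjusted p = 0.0157), and r = 0.64 without the 2 farthest libraries. The remaining called pair was Sqle and Fdft1, the neighbours on either side of squalene, with r = 0.72 (permutation p = 0.00315, adjusted p = 0.0126), rho = 0.69 (permutation p = 0.0032, adjusted p = 0.0157) and 0.57 without the 2 farthest.

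**Figure D3:**
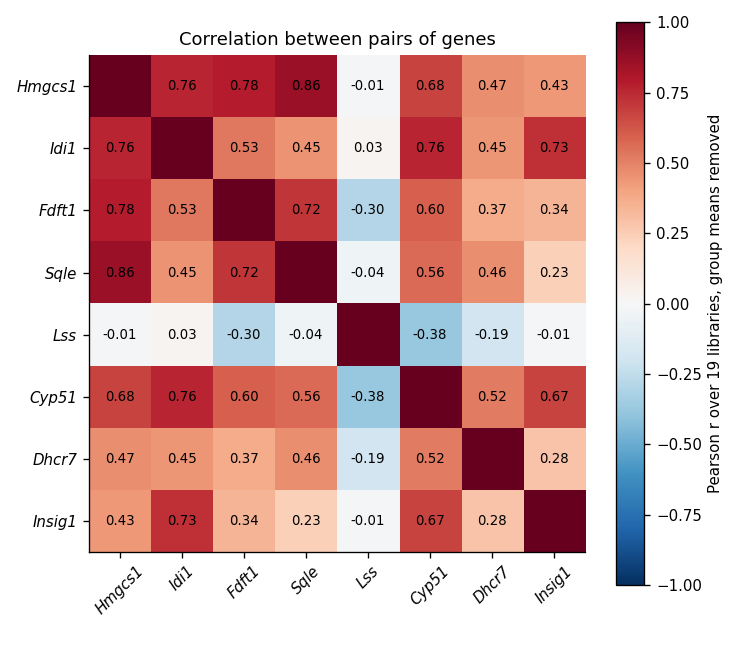
Pearson correlation (colour and number) of log2 CPM between each pair of the 8 genes over 19 libraries with group means removed. The row and column of Lss stand near or below 0, from -0.38 to 0.03, and the other 21 pairs lie between 0.23 and 0.86.

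Leaving out animals moved this correlation. 5xFAD female 2 lay 0.27 below the mean of its group in the members' average log2 CPM and knock-in male 7 lay 0.18 above its own. Without both, the median over the 28 pairs was 0.145, with 19 pairs above 0 and 18 of the 21 pairs without Lss (lowest -0.18); leaving out 1 library at a time gave 0.342 to 0.545. In the authors' deposited variance-stabilized values, whose scaling of each library differs from gene to gene, the median was 0.091. Of the 21 pairs without Lss, 14 were above 0 there (lowest -0.34). With the noncoding RNA level removed by regression the median was 0.32, with 21 of those 21 pairs above 0.

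**Figure D4:**
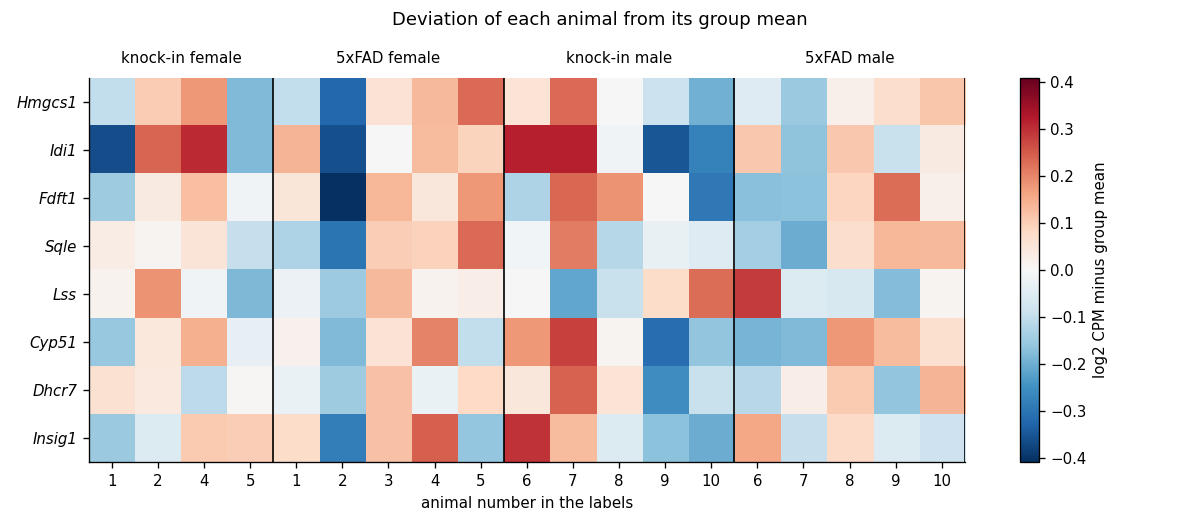
Deviation of log2 CPM from the group mean (colour) for each gene (rows) in each of the 19 animals (columns, grouped as knock-in and 5xFAD females, then knock-in and 5xFAD males). 5xFAD female 2 is below its group in all 8 rows, knock-in male 7 above it in all rows except that of Lss.

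Genes outside the list that followed the members' mean most closely within groups were named by the height of Pearson's r over 19 libraries, out of 18196 genes. They were Herpud1, a stress protein of the endoplasmic reticulum (0.83), Rdh11, a retinol dehydrogenase (0.82), Zc4h2 (0.82), Msmo1, the sterol methyl oxidase that acts soon after Cyp51 (0.82), and Snap25, a synaptic fusion protein (0.81). Tdrp, Trim32, Isca1, Impa1 and Dcaf12 followed, from 0.81 to 0.80. Sc5d, a sterol desaturase, ranked 199, Stard4, a sterol carrier, 181, and Srebf2 itself 1188 (0.46). These were picked after their values were seen. Other genes of the pathway lay lower, such as the enzyme Pmvk (0.02, rank 8402) and the transport gene Npc1 (-0.57). Among marker lists, the mean of 7 pan-neuronal genes had r = 0.57 with the members, 6 endothelial genes 0.52, 8 astrocyte genes 0.20 and 10 oligodendrocyte genes -0.45. The other lists had 0.40 (erythrocyte), 0.07 (hippocampal neuron), -0.06 (choroid plexus), -0.10 (microglia) and -0.54 (nuclear long noncoding RNA). 5xFAD female 2 was also the lowest of its group in the pan-neuronal (8.92 log2 CPM) and endothelial (4.96) means. Likeness was not recomputed without that library or knock-in male 7. How high the top of 18196 genes would run by chance was not tested. Lss was most like Zfp174 (0.88), Dop1a (0.86) and Nfat5 (0.86), and of its 8 GENCODE transcript models 5 retain an intron. Hmgcs1, Idi1, Fdft1, Cyp51 and Lss each overlap a gene on the opposite strand (Gm48342, Gm48574, Ctsb, Akap9 and 4930483K19Rik, in that order), and whether reads were told apart by strand is not given in the sources used here.

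The noncoding RNA level moved with some members inside groups. This relation was not tested for the other genes, so no share over all genes can be set beside it. Over 8 relations tested, Hmgcs1 had r = -0.64 (permutation p = 0.00051, adjusted p = 0.00408) and rho = -0.70 (permutation p = 0.00075, adjusted p = 0.006), and r = -0.58 without the 2 libraries farthest from the median level. Sqle had r = -0.53 (permutation p = 0.0091, adjusted p = 0.0364), rho = -0.54 (permutation p = 0.0138, adjusted p = 0.0363) and -0.52 without those libraries. Those were knock-in females 2 and 4 (6.24 and 6.16 log2 CPM), farthest from the median of all libraries, not from their group. 5xFAD male 10, at 6.41 in a group that averaged 7.67, was kept, so dependence on that library was not tested. The other 6 members did not pass by Pearson, although Fdft1, Cyp51 and Dhcr7 did by Spearman. Lss (r = 0.23) and Insig1 (r = -0.03) were the members with values nearest to or above 0.

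A list of 12 other enzymes of the pathway gave the same count as the members: 0 of 12 passed in each of the 6 comparisons by edgeR, with 0, 1 and 0 under 0.05 before adjustment over both sexes, in females and in males. Of all genes 11.9%, 22.1% and 6.52% were under 0.05 in these 3 comparisons before adjustment, and 0.022%, 5.56% and 0% passed after it. The median log2 difference of the 12 enzymes, knock-in minus 5xFAD, was 0.02 over both sexes, 0.09 in females and -0.01 in males. Over both sexes the lowest p values belonged to Mvk (0.12, edgeR adjusted p = 0.633), Fdps (0.09, adjusted p = 0.737) and Tm7sf2 (-0.12, adjusted p = 0.767). Tm7sf2, a sterol reductase that follows Cyp51, came nearest to the threshold in females, at 12.8 ± 3.0 CPM in knock-in females (SD, n = 4) and 18.1 ± 2.6 CPM in 5xFAD females (n = 5), a log2 difference of -0.50 (SE 0.15, adjusted p = 0.0563). Msmo1 (0.28, adjusted p = 0.258) and Sc5d (0.12, adjusted p = 0.49) came next. In males Tm7sf2 was at 0.21 (adjusted p = 0.828), Mvk at 0.14 (adjusted p = 0.878) and Pmvk at 0.23 (adjusted p = 0.905).

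**Figure D5:**
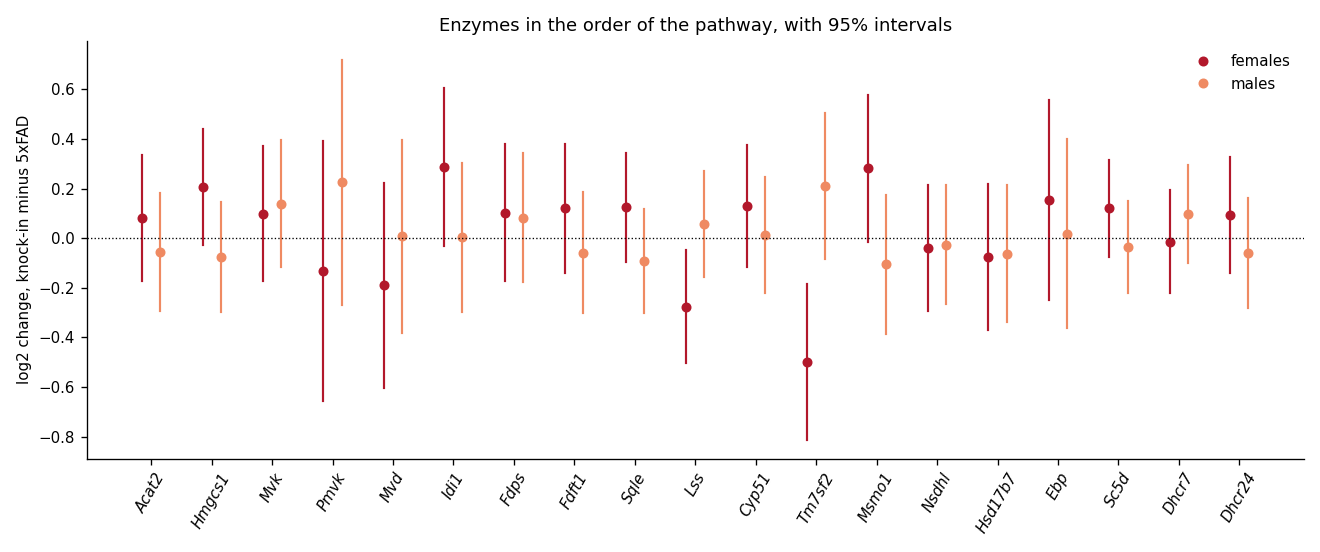
Fitted log2 difference, knock-in minus 5xFAD (y axis), with 95% intervals for 19 enzymes in the order of the pathway (x axis), in females and in males. In females Lss (-0.28) and Tm7sf2 (-0.50) lie below 0 with intervals that leave it out, while their neighbours Sqle and Cyp51 lie at 0.12 and 0.13.

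Of 10 regulators of SREBP, 0 passed by edgeR in each of the 6 comparisons. In females 2 (Erlin2 and Srebf1) had p under 0.05 before adjustment, where 22.1% of all genes did. In females Erlin2, a protein of the endoplasmic reticulum membrane (0.34, edgeR adjusted p = 0.0626), and Srebf1 (0.36, adjusted p = 0.119) had the lowest p values. Srebf1 was at 90.02 to 101.7 CPM in knock-in females and 54.5 to 88.5 CPM in 5xFAD females, without overlap. Of all genes 12.9% separated in this way between these females. Erlin2 overlapped, at 63.2 to 81.9 CPM in knock-in females and 52.4 to 67.1 CPM in 5xFAD females. Srebf2, the factor that drives the members, was at 294 ± 13 CPM in knock-in females and 279 ± 21 CPM in 5xFAD females. Over both sexes Srebf1 had 0.30 (adjusted p = 0.256).

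Uptake, efflux and fatty acid genes gave no call in any of the 6 comparisons. Before adjustment, 2, 2 and 4 of 10 uptake genes had edgeR p under 0.05 over both sexes, in females and in males. The 12 efflux genes gave 2, 3 and 1, and the 8 fatty acid genes 1, 3 and 0. Of all genes 11.9%, 22.1% and 6.52% did. In males, 8 of 10, 11 of 12 and 3 of 8 lay above 0, against 51.9% of all genes. Of 10 uptake and transport genes, Npc2, the lysosomal sterol carrier (0.38, edgeR adjusted p = 0.178), and Mylip, the ligase that degrades lipoprotein receptors (0.26, adjusted p = 0.26), had the lowest p over both sexes. Of 12 genes of efflux, storage and turnover, Ch25h, which makes 25-hydroxycholesterol, an inhibitor of SREBP processing, had the highest value, at 3.17 ± 1.40 CPM in knock-in females and 3.97 ± 1.18 CPM in knock-in males, against 2.19 ± 0.49 CPM in 5xFAD females and 1.51 ± 0.13 CPM in 5xFAD males (log2 difference over both sexes 0.98, SE 0.21, adjusted p = 0.148). Of 8 fatty acid genes, Scd2 (0.37, adjusted p = 0.0564), Scd1 (0.38, adjusted p = 0.0659) and Me1 (0.42, adjusted p = 0.0812) came nearest in females. Markers that differed between the same females were 7 of 8 noncoding RNAs, all lower in knock-in females, with 2 of 8 astrocyte genes and 3 of 5 erythrocyte genes higher. Oligodendrocyte genes gave 0 calls of 10 and microglia genes 0 of 7. Over both sexes no marker was called. Before adjustment, 7 of 7 microglia (median log2 difference 0.41), 6 of 8 astrocyte and 5 of 5 erythrocyte genes there had edgeR p under 0.05. All of these were higher in knock-in animals, and 4 of 8 noncoding RNAs under 0.05 were lower. Of all genes 11.9% were under 0.05. Of all genes 5.56% were called in females by edgeR, and 0 when knock-in female 2 or knock-in female 4 was left out.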

How the data were processed

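Total RNA of 19 hippocampi was sequenced as paired ends, per the labels' protocols, with 1 library per animal and 17.28 to 25.2 M counts (M for mega) in each. The first table holds gene counts, deposited by the authors in whole numbers. Tools named in the submitters' processing notes are FastQC, Salmon, DESeq2 and Seurat, with mm39 as the build and no role for each. Another deposited table gives normalized counts, a signal for which the authors' scaling of each library differs from gene to gene. A deposited log2 table of variance-stabilized values served only the pair correlations. A reference list of gene names gave symbols to 20023 of 20655 genes, and GENCODE M21 gave chromosomes and exon lengths.

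The test was edgeR's robust quasi-likelihood test (edgeR 4.0.16, R 4.3.3) with TMM scaling. Of all genes, 18204 passed filterByExpr at a minimum of 10 counts, and p values were adjusted over these by Benjamini-Hochberg, with a threshold of 0.05. The genotype effect over both sexes had sex as a term, and the other comparisons were contrasts of 4 group means. CPM use TMM factors, and correlations use log2 CPM with a prior count of 2. Levels per kb divide CPM by merged exon length. The script was tested on simulated data.

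Members, gene lists and tests were chosen with earlier results of these data known. The text names all members, genes of other lists past the threshold or else those with the 3 lowest p values, the 10 genes most like the members' mean and the 3 most like Lss. Srebf2, Stard4 and Sc5d were named after their values were seen, as were Pmvk and Npc1 for their likeness. A pair of genes of the pathway lists is not reported here, and counts over those lists leave them out. The 36 pairs of libraries within groups all differed by more than counting noise (chi-square per gene at least 10.3). Alternatives were DESeq2 1.42.0, limma-voom (limma 3.58.1), other normalizations and filters, non-robust dispersions, a noncoding RNA covariate, a replicate block and each library left out; for pair correlations they were added after seeing the data, as were the permutation tests of member pairs and of the relation to the noncoding RNA level.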

Additional observations from a re-analysis of the deposited data

Results flagged for a closer look

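Fdft1 had a library far from the others of its group: 5xFAD female 2 stood at 75.3 CPM, with the other 4 5xFAD females from 103 to 113 CPM, a gap of 0.739 of the group's range where 0.71 is the critical value for 5 animals. It was 1 of 32 combinations of gene and group checked, and chance gives about 1 in 20. The same library was the lowest of its group for all 8 genes. Without it, the members' median log2 difference, knock-in minus 5xFAD, was 0.029 in females and 0.016 over both sexes.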

How the results depend on the processing

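The count of members past the threshold stayed at 0 in 5 of the 6 comparisons under each alternative run. DESeq2 gave no adjusted p for Lss and Dhcr7 in the sex effect in 5xFAD animals, so its 0 there is over 6 members. For the sex effect in knock-in animals it was 1 with DESeq2 (Lss, adjusted p = 0.0457), and from 0 to 1 when 1 library was left out, with Lss called without knock-in male 7. Calls over all genes rose there too, to 106 higher and 404 lower with DESeq2 and 28 higher and 312 lower without knock-in male 7. The cause was not tested. The median correlation of member pairs was 0.145 without the 2 libraries farthest from their groups. It was 0.091 in the deposited variance-stabilized values, where the scaling of each library differs from gene to gene. Of 1368 member values under an alternative, 100 had the other sign, and 0 of these passed the threshold; the cause was not tested.

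With the noncoding level as a covariate, log2 differences took the other sign over both sexes for Hmgcs1 (-0.078), Sqle (-0.087), Fdft1 (-0.079), Idi1 (-0.013) and Cyp51 (-0.022), in females for Hmgcs1 (-0.152), Sqle (-0.141), Fdft1 (-0.185), Idi1 (-0.111) and Cyp51 (-0.176), in the interaction for Hmgcs1 (-0.101), Sqle (-0.074), Fdft1 (-0.143), Idi1 (-0.13) and Cyp51 (-0.209), and in the sex effect in knock-in animals for Hmgcs1 (-0.243) and Fdft1 (-0.206). With the deposited normalization as offsets they did so for Dhcr7 (0.293) and Insig1 (-0.046) in females, Dhcr7 (-0.052) in males, Cyp51 (-0.023) and Dhcr7 (0.345) in the interaction, Sqle (0.025) and Dhcr7 (0.175) by sex in knock-in animals, and Lss (0.059) and Dhcr7 (-0.17) by sex in 5xFAD animals. With library size only, which moved the median of all genes in the interaction to -0.154, these were Sqle (-0.017) and Fdft1 (-0.004) over both sexes, Insig1 (-0.073) in females, Cyp51 (-0.015) in the interaction, Hmgcs1 (-0.027) and Fdft1 (-0.033) by sex in knock-in animals and Lss (0.01) by sex in 5xFAD animals.

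Values close to 0 turned elsewhere. Idi1 in males was -0.008 with DESeq2 and with its size factors, -0.02 with limma-voom, -0.003 with no low-count filter and -0.021 with the replicate block. Sqle by sex in knock-in animals was 0.007 with DESeq2 and with its size factors, 0.022 with no filter and 0.015 with the stricter filter. Dhcr7 in females was 0.019 with no filter, 0.012 with the stricter filter and 0.017 with the replicate block.

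Leaving out 1 library gave ranges across 0 over both sexes for Sqle (-0.034 to 0.051) and Fdft1 (-0.027 to 0.073), in females for Dhcr7 (-0.063 to 0.057) and Insig1 (-0.053 to 0.128), in males for Idi1 (-0.08 to 0.081), Cyp51 (-0.061 to 0.082), Fdft1 (-0.119 to 0.001) and Lss (-0.011 to 0.136), by sex in knock-in animals for Sqle (-0.042 to 0.044), Idi1 (-0.135 to 0.077), Hmgcs1 (-0.003 to 0.105) and Fdft1 (-0.014 to 0.092), and by sex in 5xFAD animals for Dhcr7 (-0.012 to 0.079) and Lss (-0.108 to 0.01).

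Counts over all genes moved more. They ran from 0 to 127 over both sexes (4 in the report), 0 to 1810 in females (1013), 0 to 19 in males (0), 0 to 766 for the interaction (56), 7 to 510 by sex in knock-in animals (9) and 6 to 47 by sex in 5xFAD animals (7), with the top in DESeq2 except over both sexes, where it came without 5xFAD male 10. Title numbers shared by a knock-in and a 5xFAD animal did not pair them: correlations of their deviations ran from -0.203 to 0.119 over 9 pairs, and the fit with these numbers as a replicate block called 0 members and 0 genes in all 3 genotype comparisons. With 4 or 5 animals a group, 95% intervals of the members' genotype differences within a sex reached 0.20 to 0.32 log2 units to either side.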
